A study of Mus musculus with 3 samples.

Results

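The genes of sugar breakdown and of the response to low oxygen were followed in single cells of the mouse fracture callus. The set held 35 genes of the 32285 that the files list: 2 glucose transporters, 14 glycolytic enzymes, 4 genes that set the fate of pyruvate and lactate, 2 regulators of glycolysis, 4 genes of oxygen sensing, and 9 targets of the hypoxia response. All 35 were found by their symbols. *Aldoa* matched 2 feature rows, which were added together, and the smaller of them held at most 1 UMI in any group of cells. The callus came from femurs of untreated C57BL/6 mice at day 7, day 10, and day 14 after fracture, with 1 library for each day. Cells free of CD45, CD31, and TER119 on their surface, the markers of blood, endothelial, and red cells, had been sorted. The age of the mice for these libraries and the number pooled into each are not given in the sources used here. With 1 library per day and no replicates, no p-value could be had, and every interval below covers counting error within a library only.

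Cells were grouped by 5 class genes of the callus, with the level of each given in CPM, which is UMIs of the gene per 1000000 UMIs in all. A cell with no UMI of *Ptprc*, which encodes CD45, was called high for *Aspn* (a matrix gene of fibroblastic progenitors), *Cnmd* (chondromodulin of cartilage), or *Rgs5* (a pericyte gene) from 1000 CPM on, for *Col10a1* (collagen X of hypertrophic cartilage) from 5000 CPM, and for *Ifitm5* (an osteoblast gene) from 300 CPM, in each case with at least 3 UMIs. A cell high for more than 1 of them was left out. Day 10 gave 1588 *Aspn*-high, 2492 *Cnmd*-high, 434 *Col10a1*-high, 139 *Ifitm5*-high, and 47 *Rgs5*-high cells. Day 14 gave 3614, 1597, 1276, 389, and 125 cells in the same order. The day 7 library stood apart, since 6570 of its 7017 cells (93.6%) carried *Ptprc* although the cells had been sorted as CD45-negative. It held 22 *Aspn*-high, 59 *Cnmd*-high, 6 *Col10a1*-high, and 7 *Ifitm5*-high cells and no *Rgs5*-high cell, and its 99 skeletal cells, including 5 high for several genes, were pooled where it was compared. At day 10 and day 14 only 6 and 173 cells carried *Ptprc*. Day 7 shared 13 cell barcodes with day 10 and 26 with day 14, and day 10 shared 18 with day 14.

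Glycolysis splits glucose into pyruvate, and cells short of oxygen turn pyruvate into lactate and export it. Oxygen is sensed by prolyl hydroxylases such as *Egln1* and *Egln3*, which mark the hypoxia-inducible factors *Hif1a* and *Epas1* (also known as HIF2A) for breakdown. When oxygen is scarce these factors persist, bind a short core in promoters and enhancers, and raise glucose transporters, most glycolytic enzymes, and targets such as *Bnip3*, *Adm*, and *Mgarp*. Cartilage has no vessels, and its cells are known to live from glycolysis under low oxygen. *Hif1a* is known to keep growth plate chondrocytes alive, and *Epas1* is known for its expression in hypertrophic chondrocytes and in cells around vessels.

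The promoters of 5 genes that the results below turn on are shown with the core of the hypoxia response element in capitals. The core was searched as ACGTG and GCGTG and, for the other strand, as CACGT and CACGC, in windows of 300 bases that reach from 250 bases before to 50 bases after the start. The sequences are from RefSeq on GRCm38.p6, each 5′ to 3′ on the strand of its gene. They are shown because *Slc16a3* and *Egln1* followed the hypoxia targets, to which *Mgarp* and *Higd1a* belong, across cartilage cells, and *Hk2* did not. The windows lie at chr3:51396498-51396797 on the minus strand for *Mgarp*, chr9:121857747-121858046 on the minus strand for *Higd1a*, chr11:120948817-120949116 on the plus strand for *Slc16a3*, chr8:124949205-124949504 on the minus strand for *Egln1*, and chr6:82774405-82774704 on the minus strand for *Hk2*.
Mgarp: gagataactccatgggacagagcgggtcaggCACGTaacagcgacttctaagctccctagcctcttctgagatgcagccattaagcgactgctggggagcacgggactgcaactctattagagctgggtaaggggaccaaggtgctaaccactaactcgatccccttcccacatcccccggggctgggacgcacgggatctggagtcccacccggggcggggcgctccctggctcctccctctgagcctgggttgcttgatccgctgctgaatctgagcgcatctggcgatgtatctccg
Higd1a: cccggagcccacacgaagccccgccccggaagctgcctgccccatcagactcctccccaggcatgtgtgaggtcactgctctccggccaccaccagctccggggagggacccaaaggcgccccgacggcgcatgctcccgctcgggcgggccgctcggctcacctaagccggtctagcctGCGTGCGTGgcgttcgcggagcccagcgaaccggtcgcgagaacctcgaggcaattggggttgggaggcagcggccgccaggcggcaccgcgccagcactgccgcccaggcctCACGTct
Slc16a3: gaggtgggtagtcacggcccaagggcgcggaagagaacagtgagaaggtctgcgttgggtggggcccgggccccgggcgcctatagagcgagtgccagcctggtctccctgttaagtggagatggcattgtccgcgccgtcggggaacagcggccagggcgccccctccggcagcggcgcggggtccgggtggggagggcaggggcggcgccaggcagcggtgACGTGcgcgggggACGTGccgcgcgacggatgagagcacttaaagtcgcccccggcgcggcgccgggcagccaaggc
Egln1: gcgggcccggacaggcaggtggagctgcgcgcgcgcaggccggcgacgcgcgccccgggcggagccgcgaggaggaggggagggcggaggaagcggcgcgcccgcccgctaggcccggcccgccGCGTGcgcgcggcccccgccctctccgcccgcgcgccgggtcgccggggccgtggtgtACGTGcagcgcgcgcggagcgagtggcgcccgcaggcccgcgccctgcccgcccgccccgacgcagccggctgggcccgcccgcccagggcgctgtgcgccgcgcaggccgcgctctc
Hk2: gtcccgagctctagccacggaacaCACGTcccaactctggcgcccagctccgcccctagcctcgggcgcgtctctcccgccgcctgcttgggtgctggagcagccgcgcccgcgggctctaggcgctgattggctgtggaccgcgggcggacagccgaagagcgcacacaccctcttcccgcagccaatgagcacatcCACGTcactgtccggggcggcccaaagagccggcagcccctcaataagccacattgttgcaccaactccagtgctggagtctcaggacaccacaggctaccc

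The *Mgarp* window held 1 match, those of *Slc16a3*, *Egln1*, and *Hk2* held 2 each, and that of *Higd1a* held 3, of which 2 overlap. A RefSeq window was found for 31 of the 35 genes, and *Slc2a3*, *Epas1*, *Bnip3l*, and *Ndrg1* had none. At least 1 match was present for 28 of these 31 genes (90.3%), against 12628 of all 27025 symbols with a window (46.7%). Counted by window, it was 36 of 44 (81.8%) against 14380 of 32851 (43.8%). *Gpi1*, *Tpi1*, and *Adm2* had no match in these windows. The median G+C content was 62.8% in the windows of the set and 52.7% in all windows, and its part in the difference was not tested. The set was picked to hold genes of the hypoxia response, and the symbols beside it were not limited to genes expressed here. These shares are therefore a description and no test of the set. A match describes the letters and not a bound site, and the core was present in the window of *Hk2* as in those of the other 4 genes.

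The classes were checked against further markers. Summed over 6 chondrocyte genes (*Acan*, *Col2a1*, *Col9a1*, *Ucma*, *Sox9*, *Matn3*), *Cnmd*-high cells reached 61449 and 52682 CPM (day 10 and day 14), against 3110 and 2690 CPM in *Aspn*-high cells. Hypertrophic markers (*Ihh*, *Mmp13*, *Spp1*, *Ibsp*, *Alpl*) reached 65897 and 57529 CPM in *Col10a1*-high cells against 9092 and 12286 CPM in *Cnmd*-high cells, and 76786 and 77425 CPM in *Ifitm5*-high cells. Osteoblast markers (*Bglap*, *Bglap2*, *Dmp1*, *Sp7*, *Col1a1*, *Phex*) reached 59930.5 and 51427 CPM in *Ifitm5*-high cells against 20000.5 and 18878 CPM in *Aspn*-high cells. Pericyte markers (*Mcam*, *Cspg4*, *Pdgfrb*, *Notch3*, *Abcc9*, *Kcnj8*) reached 1977 and 1904 CPM in *Rgs5*-high cells and at most 409 CPM in the other classes of those days. Among them *Cspg4* went the other way, with 305 and 217 CPM in *Rgs5*-high cells. It had 389 and 333 CPM in *Cnmd*-high and 321 and 228 CPM in *Ifitm5*-high cells. The 6 neutrophil genes summed to 301309 CPM in the *Ptprc* positive day 7 cells, to 1945 CPM in the 99 skeletal cells of that day, and to at most 195 CPM in the classes of day 10 and day 14. Median depth lay between 9306 and 26388 UMIs in the classes and was 5045 UMIs in the *Ptprc* positive day 7 cells. Genes with a mean of at least 5 CPM over the 11 groups of at least 50 cells were compared, 9938 in all. Of the 35 genes, 33 passed, and *Adm2* and *Egln3* did not. The limit was met only through 1 class by *Slc2a3* and *Pfkfb4* (means of 3.45 and 4.10 CPM without the *Ptprc* positive cells), *Aldoc* (4.34 CPM without *Col10a1*-high cells), and *Mgarp* (3.77 CPM without *Cnmd*-high cells). These 4 had to be high in that class, and their part in a count of higher genes there is fixed by the limit.

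Pooled over the cells of a class, *Cnmd*-high cells had the highest sums of both the enzymes and the targets at day 10 and day 14 (see the map of levels). The 14 glycolytic enzymes summed to 4373 and 5013 CPM (day 10 and day 14) in *Cnmd*-high cells, to 3121 and 3233 CPM in *Aspn*-high cells, and to 2600 and 3279 CPM in *Col10a1*-high cells. They summed to 2966 and 3345 CPM in *Rgs5*-high cells and were lowest in *Ifitm5*-high cells, with 1860 and 2259 CPM. The 9 hypoxia targets gave 954 and 1052 CPM in *Cnmd*-high cells, 777 and 822 CPM in *Col10a1*-high cells, and between 316 and 480 CPM in the other classes. At day 7 the 59 *Cnmd*-high cells were already at 4827 CPM of enzymes and 998 CPM of targets. The order of the 2 cartilage classes over the others thus held for the targets, whereas for the enzymes *Col10a1*-high cells lay below *Aspn*-high cells at day 10 and close to them at day 14. The median cell gave another order. The median sum of the targets was higher in *Col10a1*-high than in *Cnmd*-high cells at day 10 (516 against 440.0 CPM) and about equal at day 14 (609 and 608 CPM). The median sum of the enzymes at day 10 was 2862 CPM in *Cnmd*-high, 2889 CPM in *Rgs5*-high, and 2509 CPM in *Aspn*-high cells, and at day 14 it was 3571, 2808, and 2520 CPM. The pooled sums of *Cnmd*-high cells thus lean on their upper cells, with a 95th percentile of 11127 CPM of enzymes at day 10 and 11990 CPM at day 14.

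**Figure D1:**
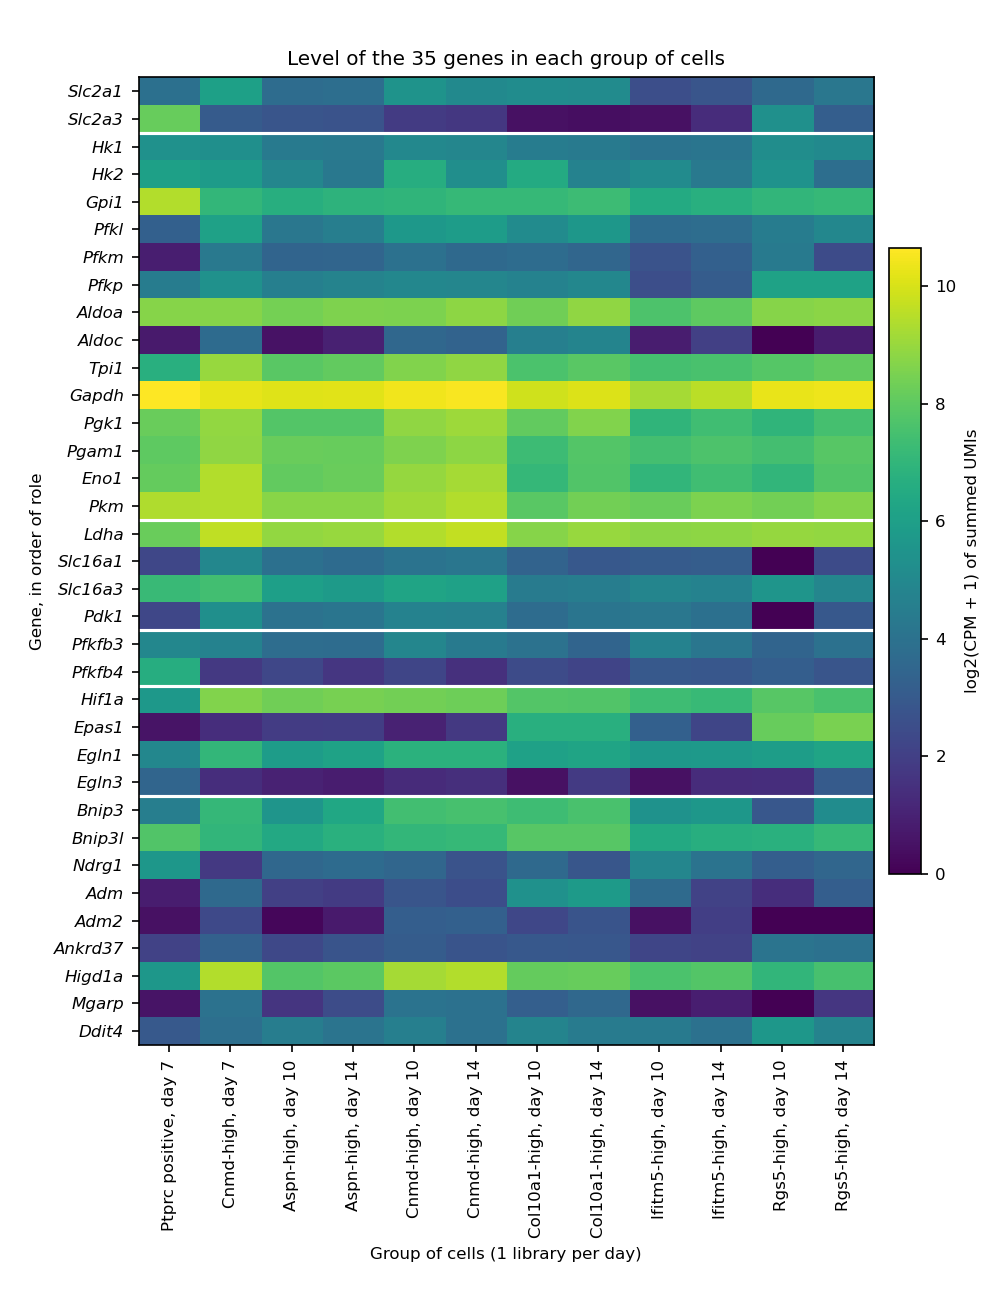
Level of the 35 genes (rows, ordered by role, with white lines between roles) in 12 groups of cells (columns), as log2 of CPM plus 1 of the summed UMIs, with 1 library per day. *Epas1* stands out in *Col10a1*-high and *Rgs5*-high cells, and *Slc2a3*, *Gpi1*, and *Pfkfb4* in the *Ptprc* positive cells of day 7.

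In the pooled *Cnmd*-high cells, all 14 glycolytic enzymes, the transporter *Slc2a1*, and *Ldha* were above their level in *Aspn*-high cells on both days, and so were most hypoxia targets. Many of these differences were under 2-fold, and those of *Pfkp* and *Pfkm* at day 14 were small beside counting error. They do not hold for every cell of the class, since at day 10 the lowest of 4 equal bins of *Cnmd*-high cells ranked by the summed hypoxia targets had 136 CPM of *Pgk1* and 278 CPM of *Ldha*, and the next bin had 198 and 358 CPM, all below the 219 and 481 CPM of *Aspn*-high cells. At day 10, 9 of 33 genes were at least 2-fold higher and 2 at least 2-fold lower, where 5.59% of all genes were higher and 15.5% lower. At day 14 the counts were again 9 and 2, against 5.07% and 15.8% of all genes. The median log2 ratio of the set was 0.61 at day 10 and 0.62 at day 14, whereas the median of all genes was -0.31 on both days. With ratios taken relative to that median, 15 genes were higher and 1 lower at day 10, and 11 higher and 0 lower at day 14. The shares of all genes were not recomputed after this shift, so those above are no background for these counts. The genes higher on both days were *Slc2a1*, *Hk2*, *Pfkl*, *Aldoc*, *Pgk1*, *Bnip3*, *Higd1a*, and *Mgarp*, with *Pfkfb3* added at day 10 and *Eno1* at day 14. Of these, *Mgarp* had passed the limit on low genes only through the *Cnmd*-high cells, so its part in the counts was fixed by that limit.

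*Slc2a1*, the glucose transporter GLUT1, was at 12.7 and 13.5 CPM in *Aspn*-high cells and at 43.6 and 31.9 CPM in *Cnmd*-high cells (day 10 and day 14). Its log2 ratio was 1.78 (95% interval 1.61 to 1.96) and 1.24 (1.10 to 1.38). The other transporter, *Slc2a3* (GLUT3), went the other way, with 5.99 and 5.54 CPM in *Aspn*-high cells against 2.61 and 2.31 CPM. Among the enzymes, *Hk2*, the hexokinase that traps glucose in the cell, stood at 28.5 and 18.3 CPM in *Aspn*-high cells and at 98.1 and 36.8 CPM in *Cnmd*-high cells. *Hk1*, the hexokinase found in most cells, differed less, with log2 ratios of 0.61 and 0.62. Of the phosphofructokinases, which catalyze the committed step, *Pfkl* was higher by log2 ratios of 1.52 and 1.40, while *Pfkm* (0.59 and 0.20) and *Pfkp* (0.33 and 0.11) stayed under 2-fold. *Pgk1*, which makes the first ATP of the pathway, went from 219 to 465 CPM at day 10 and from 220 to 547 CPM at day 14. *Aldoc*, the aldolase better known from brain, was nearly absent from *Aspn*-high cells (0.413 and 0.986 CPM) and at 10.8 and 9.47 CPM in *Cnmd*-high cells, which is 26.1-fold and 9.61-fold more. *Gapdh* (0.27 and 0.39), *Aldoa* (0.10 and 0.26), *Gpi1* (0.31 and 0.27), *Tpi1* (0.71 and 0.81), *Pgam1* (0.36 and 0.67), *Pkm* (0.39 and 0.68), and *Ldha* (0.51 and 0.65), the lactate dehydrogenase, had log2 ratios above 0 and under 1. *Eno1* had 0.87 and 1.00, but its copy *Eno1b* is nearly identical in sequence, so that reads of the pair may have been split. In the pooled cells all ratios of the enzymes thus lay above 0 and differed in degree, with *Aldoc* having the largest on both days. At day 14 the intervals of the levels in *Cnmd*-high and *Aspn*-high cells overlapped for *Pfkp* (26.4 to 30.0 and 24.8 to 27.6 CPM). They also did for *Pfkm* (10.4 to 12.8 and 9.17 to 10.9 CPM).

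The lactate exporter *Slc16a3* (MCT4) hardly separated the classes, with 63.2 and 54.8 CPM in *Aspn*-high cells and 74.2 and 67.4 CPM in *Cnmd*-high cells. *Slc16a1* (MCT1) had log2 ratios of 0.15 and 0.49, and *Pdk1*, the kinase that keeps pyruvate out of the mitochondria, 0.75 and 0.57. Of the enzymes that tune glycolysis through fructose 2,6-bisphosphate, *Pfkfb3* had 1.15 and 0.66, and *Pfkfb4* -0.03 and -0.30. The RNA of *Hif1a* itself was nearly equal in both classes (320 and 351 CPM in *Aspn*-high, 333 and 316 CPM in *Cnmd*-high cells), and *Epas1* was below 3 CPM in both. *Egln1* had log2 ratios of 0.92 and 0.67. Among the targets, *Mgarp*, a mitochondrial transport protein, was at 2.11 and 4.48 CPM in *Aspn*-high cells and at 15.6 and 14.5 CPM in *Cnmd*-high cells. *Higd1a*, a mitochondrial protein of the hypoxia response, went from 223 to 582 CPM and from 249 to 673 CPM. The mitophagy receptor *Bnip3* had log2 ratios of 1.90 and 1.20, and its relative *Bnip3l* 0.62 and 0.35. *Adm* (0.97 and 0.87) and *Ankrd37* (0.91 and -0.02) stayed under 2-fold, as did the mTORC1 inhibitor *Ddit4* (0.08 and -0.13). *Ndrg1* was equal at day 10 (-0.04) and 2-fold lower at day 14 (-1.15). *Adm2*, which did not pass the limit of 5 CPM, had 3 UMIs in *Aspn*-high and 401 in *Cnmd*-high cells at day 10, and 36 and 284 UMIs at day 14. Of 33 further genes of the pathway that passed, 9 were 2-fold higher and 4 lower at day 10, and 6 higher and 2 lower at day 14. The largest ratios among them were those of *Stc2* (2.54), a secreted glycoprotein, and *Ak4* (2.06), a mitochondrial adenylate kinase, at day 10, and of *Car12* (2.58), a carbonic anhydrase, and *Ak4* (2.35) at day 14. Genes that respond to tissue dissociation (*Fos*, *Jun*, *Egr1*, *Atf3*, *Hspa1a*, *Hspa1b*) summed to 9687 and 11688 CPM in *Cnmd*-high and to 5467 and 5469 CPM in *Aspn*-high cells, and their part in these differences was not tested.

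When the 2492 *Cnmd*-high cells of day 10 and the 1597 of day 14 were ranked by the summed CPM of the 9 hypoxia targets and cut into 4 bins of equal size, nearly every glycolytic enzyme was higher where the targets were higher. The ranking was chosen with the levels already known. Its sum came mostly from *Higd1a* (582 and 673 CPM in all *Cnmd*-high cells at day 10 and day 14), *Bnip3* (169 and 186 CPM), and *Bnip3l* (131 and 139 CPM). Each of the other targets was at 23.3 CPM or less, so the bins mainly follow *Higd1a*, *Bnip3*, and *Bnip3l*. At day 10 the lowest bin ended at 237.0 CPM and the highest ran from 1073 to 7990 CPM. The bins are cuts through a ranking and are not named as cell types. Of the 25 genes of the set that were tested and not used for ranking, 19 were at least 2-fold higher in the highest than in the lowest bin at day 10 and 17 at day 14, and none was 2-fold lower on either day. Of all genes, 3.42% were higher and 5.39% lower at day 10, and 3.05% were higher and 6.63% lower at day 14. The median log2 ratio of the 25 genes was 2.03 and 1.99, with 0 and -0.04 for all genes.

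*Pgk1* went from 136 CPM in the lowest bin over 198 and 393 CPM to 1039 CPM in the highest at day 10, and from 165 over 274 and 565 to 1089 CPM at day 14. *Ldha* went from 278 to 1372 CPM at day 10 and from 332 to 1508 CPM at day 14. *Tpi1* had log2 ratios of 2.77 and 2.47, *Gapdh* 2.14 and 2.10, *Pgam1* 2.31 and 2.11, *Eno1* 2.07 and 1.99, and *Pkm* 2.03 and 2.03. Of these, *Ldha*, *Tpi1*, *Gapdh*, *Pgam1*, and *Pkm* had differed by less than 2-fold between *Cnmd*-high and *Aspn*-high cells. The lactate exporter *Slc16a3*, which had hardly separated cartilage from fibroblastic cells, had the ratios 3.58 and 3.87, from 15.6 to 186 CPM at day 10 and from 10.8 to 158 CPM at day 14. *Slc2a1* went from 17.5 to 99.3 CPM and from 11.8 to 68.9 CPM. *Egln1*, the oxygen sensor that is itself a known HIF target, went from 33.3 to 277 CPM and from 38.3 to 241 CPM. *Aldoc* had 5.24 and 2.99, and *Pfkp* 2.43 and 2.46. The others that passed 2-fold on both days were *Slc2a3* (3.32 and 2.05), *Aldoa* (1.88 and 1.82), *Pfkl* (1.59 and 1.59), and *Pdk1* (1.58 and 1.15). *Hk1* (1.18 and 0.80), *Gpi1* (1.05 and 0.95), and *Slc16a1* (1.02 and 0.87) did so at day 10, and *Pfkfb4* (0.40 and 1.44) at day 14.

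A few genes stayed out of this range. *Hk2* was slightly lower in the highest bin, with 88.5 CPM against 109.6 CPM in the lowest at day 10 and 32.6 against 44.1 CPM at day 14 (log2 ratios -0.31, interval -0.43 to -0.19, and -0.43, interval -0.66 to -0.20). The RNA of *Hif1a* had 0.57 and 0.52 and stayed under 2-fold. The factor is known to be set mainly by protein stability, which these counts do not show. *Pfkm* (0.30 and 0.11), *Pfkfb3* (0.91 and 0.75), and *Epas1* (0.23 and -0.48, each from few UMIs) stayed under 2-fold on both days. Of the further pathway genes, 15 of 33 were 2-fold higher on each day, led by *Fam162a* (2.90 and 2.65), a mitochondrial target of HIF. Next came *P4ha2* (2.53), a collagen prolyl hydroxylase, at day 10 and *Car12* (2.60) at day 14. *Ldhb*, the lactate dehydrogenase of oxidative tissue, had -0.42 and -0.85. *Pdk4* was the single one that was 2-fold lower, at day 14 (-1.41). It was at 0.551 CPM in the highest and 1.46 CPM in the lowest bin there, and its interval (-3.29 to 0.23) held no difference.

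Depth and other markers moved with the ranking. Median UMIs went from 18349 to 22110 at day 10 and from 19077 to 22937 at day 14, and the median mitochondrial share went from 2.47% to 1.51% and from 2.26% to 1.39%. Chondrocyte markers went from 56051 to 73519 CPM and from 44909 to 61066 CPM, hypertrophic markers from 8143 to 5939 CPM and from 16069 to 8198 CPM, and the dissociation response from 10835 to 8936 CPM and from 12277 to 11415 CPM. Their part in the pattern was not tested. Over single cells, the summed CPM of the enzymes and of the targets had a Pearson correlation of 0.85 in the 2492 cells of day 10 and 0.84 in the 1597 of day 14. It was 0.73 in the 59 *Cnmd*-high cells of day 7, 0.80 and 0.74 in *Col10a1*-high, 0.59 and 0.67 in *Aspn*-high, 0.51 and 0.67 in *Ifitm5*-high, and -0.08 and 0.49 in *Rgs5*-high cells, and 0.08 in the *Ptprc* positive cells of day 7. Both sums of a cell share its library and its total UMI count, so these values are a description.

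**Figure D2:**
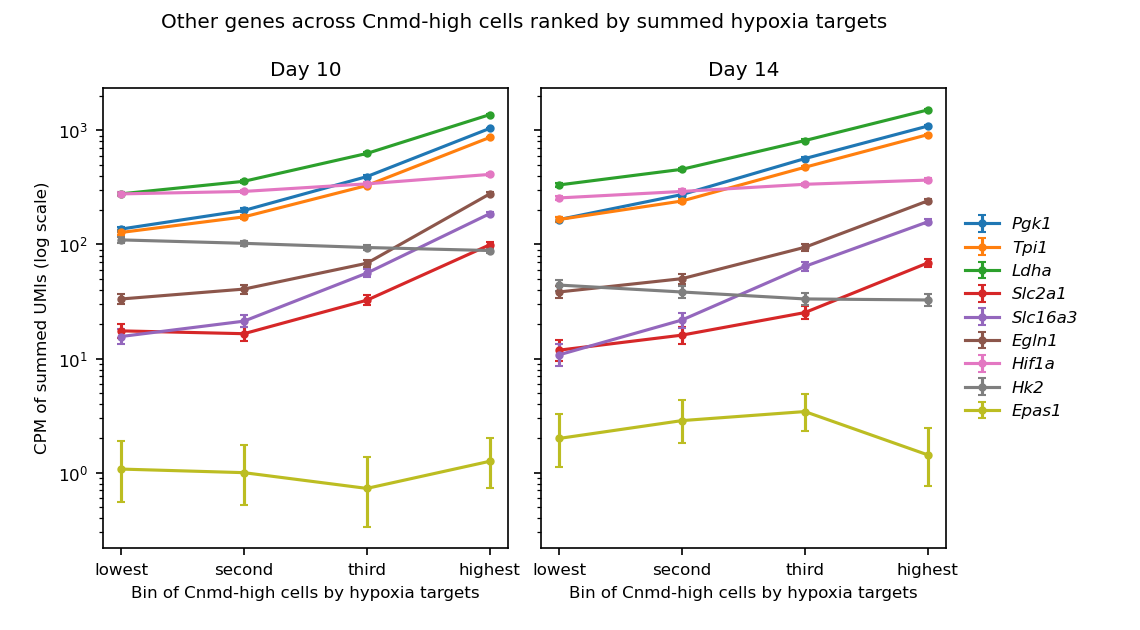
CPM of 9 genes that were not used for ranking (log scale) in 4 bins of *Cnmd*-high cells ranked by the summed hypoxia targets, for day 10 and day 14, with exact 95% Poisson intervals. *Pgk1*, *Tpi1*, *Ldha*, *Slc2a1*, *Slc16a3*, and *Egln1* climb from the lowest to the highest bin, while *Hk2*, *Hif1a*, and *Epas1* stay nearly level.

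Between *Cnmd*-high and *Col10a1*-high cells, the hypertrophic state of cartilage, single genes of the set differed in both directions. *Epas1* and the vessel-widening peptide *Adm* were far higher in *Col10a1*-high cells, together with *Aldoc*, whereas several enzymes of the later steps of glycolysis, the lactate exporter *Slc16a3*, and *Higd1a* were lower. These are pooled levels. At day 10 the lowest bin of *Cnmd*-high cells was below *Col10a1*-high cells for *Slc16a3* (15.6 against 20.3 CPM), *Tpi1* (127 against 194 CPM), and *Pgam1* (151 against 157 CPM). It was above them for *Eno1* (221 against 133 CPM) and *Pkm* (261 against 239 CPM). At day 10, 3 of 33 genes were at least 2-fold higher and 8 at least 2-fold lower, beside 12.4% and 10.4% of all genes. At day 14 it was again 3 and 8, beside 9.32% and 10.1%. The share of higher genes in the set, 9.09% on both days, was no larger than that of all genes, and the share of lower genes was 24.2%. Of the higher genes, *Aldoc* had passed the limit on low genes only through the *Col10a1*-high cells, so its part in these counts was fixed by that limit. The median log2 ratio was -0.53 and -0.47, that of all genes 0.11 and 0.03. The *Cnmd*-high cells are the same as those set against *Aspn*-high cells. Relative to the shift of 0.11 at day 10, 2 genes were higher and 10 lower, with the shares of all genes not recomputed. The count of lower genes leaned on which cells were used. It was 1 at day 10 and 3 at day 14 with cells high for several class genes kept. A cell high for both genes then counts in both classes, which by construction draws the ratios toward 1. With the limits of the classes doubled, the count was 4 at day 10.

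*Epas1* (chr17:86753700-86833410, plus strand, GRCm38) had 1.02 CPM in *Cnmd*-high and 104.1 CPM in *Col10a1*-high cells at day 10, and 2.43 and 105.3 CPM at day 14, which is 102-fold (log2 6.67, interval 6.26 to 7.12) and 43.4-fold (5.44, 5.12 to 5.78) more. The level in *Col10a1*-high cells differed little between the days (log2 0.02). With every cell thinned to 2000 UMIs, 17.8% of *Col10a1*-high cells of day 10 and 19.8% of day 14 had an *Epas1* UMI, against 0.445% and 0.628% of *Cnmd*-high, 0.506% and 0.557% of *Aspn*-high, and 0.145% of *Ptprc* positive day 7 cells. Unthinned, it was 64.7% and 64.3% of *Col10a1*-high and 1.69% and 4.01% of *Cnmd*-high cells, at median depths of 17114, 16967, 19700, and 21044 UMIs. Even the 6 *Col10a1*-high cells of day 7 held 10 *Epas1* UMIs (78.8 CPM, interval 37.8 to 145), and the 59 *Cnmd*-high cells held 2. *Hif1a* moved the other way, from 333 to 220 CPM and from 316 to 215 CPM, which is under 2-fold (log2 -0.60 and -0.55). *Egln1* had -0.72 and -0.60.

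*Adm* (chr7:110627661-110629820, plus strand) was at 6.00 and 4.71 CPM in *Cnmd*-high and at 41.2 and 55.1 CPM in *Col10a1*-high cells, 6.86-fold and 11.7-fold more. *Aldoc* had 23.1 and 26.5 CPM in *Col10a1*-high cells (log2 1.10 and 1.49 against *Cnmd*-high). *Bnip3l*, which removes mitochondria, stayed under 2-fold with 0.85 and 0.78. The other targets did not follow *Adm*, since *Bnip3* (-0.05 and 0.05), *Ankrd37* (-0.16 and 0.16), *Ndrg1* (0.15 and 0.14), and *Ddit4* (0.22 and 0.49) were level or nearly so, *Mgarp* had -0.90 and -0.37, and *Higd1a* was lower, with 279 against 582 CPM and 286 against 673 CPM.

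Of the enzymes, *Eno1* differed most, with 491 against 133 CPM at day 10 and 598 against 215 CPM at day 14, 3.69-fold and 2.78-fold less. Its copy *Eno1b* differed by a similar log2 ratio (-1.54 and -1.59 against -1.88 and -1.47). *Pkm* (-1.22 and -1.03) and *Pgam1* (-1.27 and -1.04) were 2-fold lower on both days. *Tpi1* (-1.02 and -0.96), *Pgk1* (-0.80 and -0.48), *Gapdh* (-0.53 and -0.47), *Ldha* (-0.70 and -0.65), *Pfkl* (-0.57 and -0.26), *Hk1* (-0.52 and -0.51), and *Hk2* (-0.14 and -0.52) had smaller ratios. *Aldoa* (-0.20 and 0.06), *Gpi1* (0.16 and 0.18), *Pfkp* (-0.21 and 0.04), and *Pfkm* (-0.24 and -0.14) were close to 0. Of the enzymes 2-fold lower on either day, *Tpi1*, *Pgam1*, *Eno1*, and *Pkm*, all act after the sugar has been split. *Slc16a3* went from 74.2 to 20.3 CPM and from 67.4 to 21.7 CPM, and *Slc16a1* had -0.72 and -1.35. *Slc2a1* was level (-0.31 and 0.10), and *Slc2a3* was nearly absent from *Col10a1*-high cells, with 3 and 7 UMIs in all. *Pdk1* had -1.02 and -0.56, *Pfkfb3* -0.94 and -1.06, and *Pfkfb4* 0.26 and 0.96.

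Among the further pathway genes, 8 of 33 were 2-fold higher and 7 lower at day 10, and 7 and 5 at day 14. *Pdk4*, a relative of *Pdk1* that rises when cells burn fat, had the largest ratio on both days (4.88 and 4.02), from 1.16 to 34.2 CPM and from 1.29 to 20.9 CPM. *Hk3* (3.89 and 3.71) stayed below 2 CPM in *Col10a1*-high cells. *Car12* had the lowest ratio (-2.39 and -3.18), followed by *Eno1b*. Cycling markers (*Mki67*, *Top2a*, *Ccnb2*) summed to 3.85 and 3.74 CPM in *Col10a1*-high and to 43.6 and 32.1 CPM in *Cnmd*-high cells, and the part of this in the differences was not tested.

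**Figure D3:**
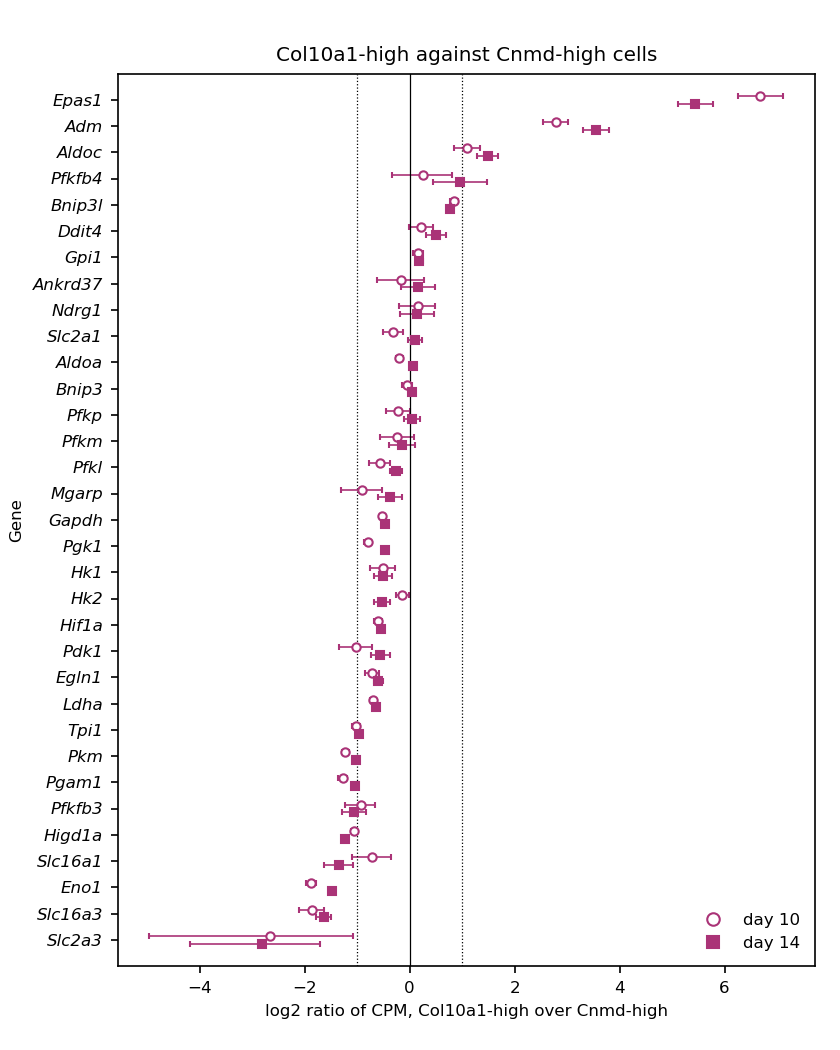
Log2 ratio of CPM in *Col10a1*-high over *Cnmd*-high cells for 33 genes at day 10 (open circles) and day 14 (filled squares), with exact 95% binomial intervals and dotted lines at 2-fold. *Epas1*, *Adm*, and *Aldoc* lie to the right of the upper line on both days, and *Slc2a3*, *Slc16a3*, *Eno1*, *Higd1a*, *Pgam1*, and *Pkm* to the left of the lower one.

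Cells high for both *Cnmd* and *Col10a1*, which had been left out above, were set beside the 2 classes. This look at them was chosen after the data had been seen. At day 10 there were 165, and 8 of the 33 genes lay between their levels in the 2 classes. At day 14 there were 189, and 19 of 33 lay between. The share of all genes lying between was not taken, and counting error was not weighed. A gene that is nearly level in the 2 classes leaves little room between them, so these counts are a description only. *Epas1* was between on both days, with 15.1 and 30.6 CPM, and so were *Eno1*, with 362 and 289 CPM, and *Adm*, with 38.5 and 19.0 CPM. At day 10 many of the others were above both classes, such as *Bnip3* with 412 CPM (169 in *Cnmd*-high, 163 in *Col10a1*-high cells), *Higd1a* with 918 CPM (582 and 279), and *Slc2a1* with 85.1 CPM (43.6 and 35.2). At day 14, *Bnip3* was at 153 CPM, under both classes, and *Higd1a* at 457 CPM, between them. No doublet caller was run, and pairs of cells in 1 droplet cannot be told apart from cells of a mixed state here. Their median depth was 21125 and 21639 UMIs, against 19700 and 21044 in *Cnmd*-high cells.

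*Ifitm5*-high cells, the osteoblast class, had lower levels of the transporters, of *Pfkp*, and of *Slc16a3* than *Aspn*-high cells, while the set as a whole differed by about as much as all genes did. At day 10, 3 of 33 genes were 2-fold higher and 6 lower, with 5.01% and 17.2% of all genes, and at day 14, 2 were higher and 6 lower, with 5.06% and 17.1%. The median log2 ratio of the set was -0.34 and -0.40, and that of all genes -0.33 and -0.34. Relative to that shift, 6 genes were higher and 4 lower at day 10, and 2 higher and 3 lower at day 14. The shares of all genes were not recomputed for these counts. These comparisons use the same *Aspn*-high cells as those of the cartilage and *Rgs5*-high cells.

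*Slc2a1* was lower on both days, with 4.84 and 5.95 CPM in *Ifitm5*-high cells against 12.7 and 13.5 CPM in *Aspn*-high cells, and so were *Pfkp* (4.84 and 7.65 against 23.1 and 26.2 CPM) and *Slc16a3* (27.8 and 25.2 against 63.2 and 54.8 CPM). *Slc2a3* and *Mgarp* had at most 9 UMIs in *Ifitm5*-high cells and were also lower. *Eno1* was 2-fold lower at day 10 (log2 -1.10) and had -0.84 at day 14. *Hif1a* was at 161 and 142 CPM, the lowest of the 5 classes on both days, with log2 intervals against *Aspn*-high cells of -1.14 to -0.85 and -1.41 to -1.21. *Ldha* (-0.11 and -0.17), *Egln1* (-0.24 and -0.43), *Bnip3l* (0.03 and -0.12), *Higd1a* (-0.17 and -0.15), and *Ddit4* (-0.13 and -0.14) stayed near the level of *Aspn*-high cells. *Ndrg1* was 2-fold higher at day 10, with 28.2 against 10.7 CPM, and had 15.6 against 12.3 CPM at day 14. *Adm* and *Epas1* were also 2-fold higher at day 10 (29 and 21 UMIs) and not at day 14. *Pfkfb4* had log2 ratios of 0.87 and 1.55, and *Pfkfb3* 0.95 and 0.43. Of the further genes, 2 were higher and 5 lower at day 10, and 3 and 5 at day 14, with *Pygl*, the glycogen phosphorylase of liver, the lowest on both days (-4.31 and -2.70).

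*Rgs5*-high cells, the pericyte class, had the highest *Epas1* of the callus classes. It was at 283 CPM (interval 243 to 329) in the 47 cells of day 10 and at 357 CPM (325 to 390) in the 125 of day 14, against 2.69 and 2.84 CPM in *Aspn*-high cells. With 2000 UMIs per cell, 53.3% and 46.7% of the *Rgs5*-high cells had an *Epas1* UMI. Of the set, 6 of 33 genes were 2-fold higher than in *Aspn*-high cells and 4 lower at day 10, where 9.9% and 13.1% of all genes were, and 5 were higher and 5 lower at day 14, where 10.2% and 11.4% were. The median log2 ratio was 0 at day 10 and 0.03 at day 14, as it was for all genes. The 47 cells of day 10 are few, fewer than the 50 asked for in the limit on low genes and in the comparison of days, and their counts are given beside those of day 14 with that limit.

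*Pfkp*, the platelet phosphofructokinase, was at 70.0 and 68.9 CPM against 23.1 and 26.2 CPM in *Aspn*-high cells. *Ankrd37* (16.3 and 14.8 against 4.01 and 5.86 CPM) was higher as well, and *Pfkfb4* (8.14 and 5.93 CPM) rested on 5 and 8 UMIs. *Bnip3* was lower (6.51 and 34.8 against 45.3 and 81.0 CPM). *Slc16a1* and *Pdk1* had no UMI at day 10, which gives log2 ratios of at most -1.55 and -1.64 with 3 counts taken as the floor, and -1.44 and -1.32 at day 14. *Ddit4* (1.14 at day 10) and *Adm* (1.66 at day 14, from 11 UMIs) were 2-fold higher on 1 day, and *Eno1* (-1.09 at day 10) and *Pfkm* (-1.17 at day 14) 2-fold lower on 1 day. *Slc2a3* had 24 UMIs at day 10 (39.1 CPM) and 11 at day 14 (8.15 CPM), seen in 12.8% and 7.2% of cells. *Aldoc* and *Mgarp* had no UMI at day 10, and 1 and 3 UMIs at day 14. Endothelial cells, which are also known for *Epas1*, had been sorted out by CD31. Of 4 endothelial markers (*Pecam1*, *Cdh5*, *Emcn*, *Kdr*), *Cdh5* and *Kdr* were at 0 in *Rgs5*-high cells on both days, and the sum was 61.9 and 28.9 CPM, mostly from *Emcn*, against at most 4.53 CPM in the other classes. Cycling markers summed to 230 and 242 CPM in *Rgs5*-high cells, against 72.6 and 33.0 CPM in *Aspn*-high cells, and the dissociation response to 10697 and 10091 CPM, against 5467 and 5469 CPM. Their part in these values was not tested.

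**Figure D4:**
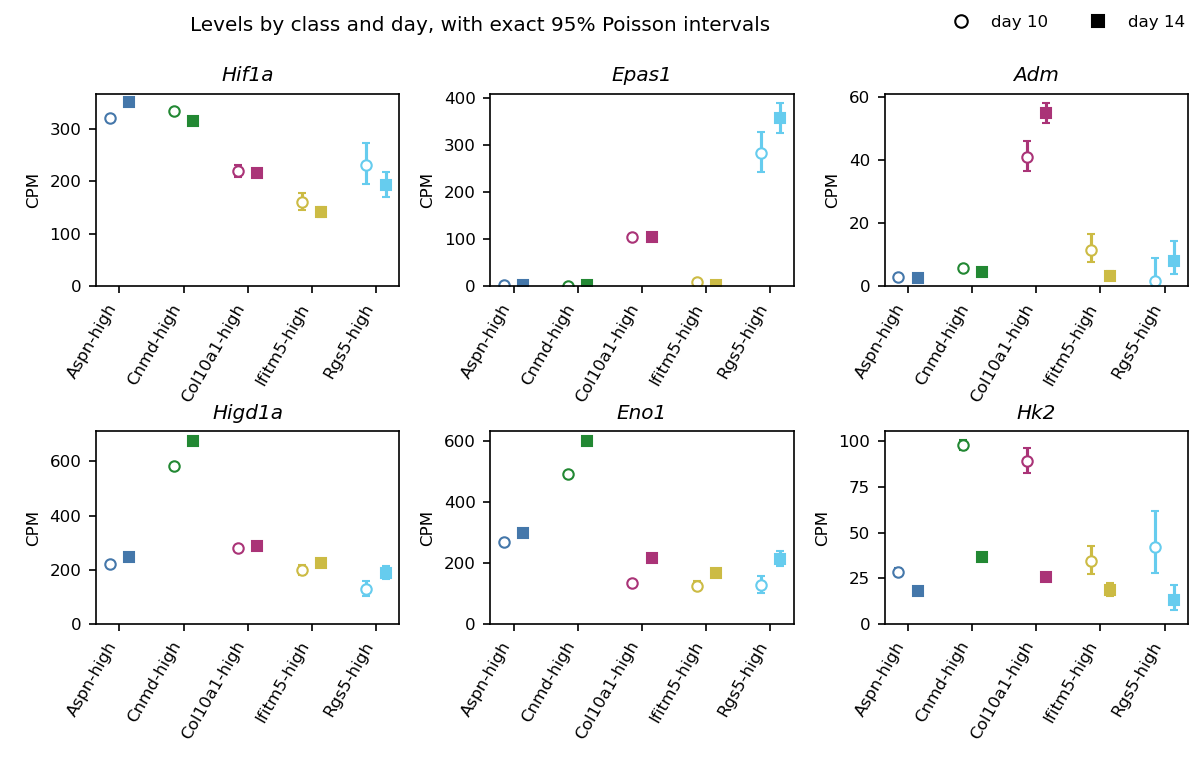
CPM of 6 genes in the 5 classes at day 10 (open circles) and day 14 (filled squares), each point from 1 library with its exact 95% Poisson interval. *Epas1* is highest in *Rgs5*-high and next in *Col10a1*-high cells, *Adm* is highest in *Col10a1*-high cells, *Higd1a* and *Eno1* are highest in *Cnmd*-high cells, and *Hk2* is lower at day 14 than at day 10 in every class.

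Between day 10 and day 14 few genes differed 2-fold within a class, and *Hk2* was lower at day 14 in each of them. *Hk2* (chr6:82725025-82774454, minus strand) went from 98.1 to 36.8 CPM in *Cnmd*-high cells (log2 -1.42, interval -1.51 to -1.32) and from 89.1 to 25.5 CPM in *Col10a1*-high cells (-1.80, -1.97 to -1.64). It had -0.64 in *Aspn*-high cells, from 28.5 to 18.3 CPM, and -0.89 in *Ifitm5*-high cells, from 34.3 to 18.5 CPM. The *Rgs5*-high cells were left out of the comparison of days, which asked for 50 cells of a class on both days, and had 42.3 and 13.3 CPM. At day 7 it had been at 55.7 CPM in *Cnmd*-high and 65.5 CPM in *Aspn*-high cells. Each day is 1 library, so day and library cannot be told apart.

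In *Aspn*-high cells, 2 of 33 genes were 2-fold higher at day 14, *Aldoc* and *Mgarp*, and 0 lower, with 1.2% and 1.7% of all genes. *Bnip3* had a log2 ratio of 0.84 there, from 45.3 to 81.0 CPM. In *Cnmd*-high cells, 1 was higher, *Epas1* with 50 and 81 UMIs, and 2 were lower, *Hk2* and *Pfkfb4*, with 1.25% and 1.4% of all genes. In *Col10a1*-high cells, 0 were higher and 1 lower, with 1.45% and 1.75%, where the median of all genes was -0.12 and that of the set 0.12. In *Ifitm5*-high cells, 3 were higher and 2 lower, with 2.56% and 2.97%. The 3 higher ones, *Slc2a3*, *Aldoc*, and *Mgarp*, had between 1 and 18 UMIs, and no interval of theirs left out a ratio of 1. The 2 lower ones were *Adm*, with 29 and 19 UMIs, and *Epas1*, with 21 and 22 UMIs. Several enzymes were slightly higher at day 14 in *Cnmd*-high and *Col10a1*-high cells, early as well as late in the pathway, for example *Pfkl* with 0.22 and 0.53, *Aldoa* with 0.31 and 0.57, *Pgk1* with 0.24 and 0.56, *Eno1* with 0.28 and 0.69, and *Pkm* with 0.28 and 0.48, all under 2-fold. *Ddit4* had log2 ratios between -0.66 and -0.39 in the 4 classes, and *Ndrg1* had -0.91, -0.91, and -0.85 in *Cnmd*-high, *Col10a1*-high, and *Ifitm5*-high cells and 0.21 in *Aspn*-high cells. Of the 33 further genes, at most 1 was 2-fold higher and at most 1 lower in any class, such as *Vegfa*, the vessel growth factor, with -1.10 in *Cnmd*-high cells.

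The *Ptprc* positive cells of day 7, in which neutrophil genes were abundant, differed from skeletal cells within several gene families. Set against the 99 skeletal cells of that library, they had more *Slc2a3*, *Pfkfb4*, *Ndrg1*, and *Gpi1*, and far less of *Hif1a*, *Epas1*, *Egln1*, and most targets. Of these 99 cells, 59 were *Cnmd*-high and 22 *Aspn*-high, so the pool leans on cartilage cells. *Higd1a*, for example, was at 682 CPM in the *Cnmd*-high and at 136 CPM in the *Aspn*-high cells of day 7. *Ndrg1* was at 2.42 CPM in the *Cnmd*-high cells and at 26.2 CPM (10 UMIs) in the *Aspn*-high cells. The latter is less than 2-fold below the 48.2 CPM of the *Ptprc* positive cells. *Epas1* was seen in 7.07% of the 99 cells and in 1.69% of the *Cnmd*-high ones, so its difference rests on few cells of the pool. Of 33 genes, 4 were 2-fold higher and 17 lower, where 18.1% of all genes were higher and 42.7% lower. The median log2 ratio was -1.05, and that of all genes -0.65. Relative to this shift, 9 were higher and 15 lower, with the shares of all genes not recomputed. Of the 4 higher genes, *Slc2a3* and *Pfkfb4* had passed the limit of 5 CPM only through the *Ptprc* positive cells. Of the 17 lower genes, *Mgarp* had passed it only through *Cnmd*-high cells, which make up most of the pool. The places of these genes thus lean on that limit, and the counts are no measure of the set. Both groups come from 1 library, in which neutrophil RNA was also counted in the skeletal cells (1945 CPM).

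*Slc2a3* (chr6:122727809-122801640, minus strand) had 289 CPM in the *Ptprc* positive and 6.43 CPM in the skeletal cells, 44.9-fold more (log2 5.49, interval 4.71 to 6.40). Thinned to 2000 UMIs per cell, 49.7% of the *Ptprc* positive cells had a *Slc2a3* UMI and 0 of 98 skeletal cells did, where the exact binomial interval reaches up to 3.69%. *Slc2a1* was the reverse, with 14.3 against 52.4 CPM. This did not hold for each class of the pool, since the 59 *Cnmd*-high cells had 64.6 CPM and the 22 *Aspn*-high cells had 0 UMIs of it. *Pfkfb4* had 98.3 against 2.97 CPM (log2 5.05, 3.93 to 6.50), while *Pfkfb3* had 29.2 against 20.8 CPM. *Gpi1*, the isomerase of the second step, had 672 against 112 CPM, and the next level was 385 CPM in the 173 *Ptprc* positive cells of day 14. *Gapdh* (0.67), *Aldoa* (0.36), *Pkm* (0.30), *Hk1* (0.26), *Hk2* (0.26), and *Slc16a3* (0.36) had log2 ratios between 0 and 1, and *Ldha* (-1.05) and *Tpi1* (-1.85) were 2-fold lower. Of the phosphofructokinases, *Pfkp* had -0.64, *Pfkl* -2.57, and *Pfkm* -4.08. The 14 enzymes summed to 4426 CPM in the *Ptprc* positive and 3754 CPM in the skeletal cells when pooled, and the median cell had 4223 and 2746 CPM. Most of both sums came from genes that differed by less than 2-fold, *Gapdh* alone giving 1597 and 1000.4 CPM.

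*Hif1a* was at 49.4 CPM in the *Ptprc* positive and at 354 CPM in the skeletal cells (log2 -2.84, -2.96 to -2.72). *Egln1* had 29.1 against 98.9 CPM, *Epas1* 23 UMIs in 6570 cells, and *Egln3*, which did not pass the limit, 9.96 against 1.48 CPM. Of the targets, *Higd1a* (49.1 against 469 CPM), *Bnip3* (22.5 against 102 CPM), *Mgarp* (0.457 against 10.9 CPM), and *Adm* (0.795 against 15.3 CPM) were lower. *Ddit4* (-1.68), *Ankrd37* (-1.09), *Slc16a1* (-2.65), *Pdk1* (-2.92), and *Aldoc* (-3.51) were lower too, though *Ankrd37* turned to 0.10 with each cell weighed the same. *Ndrg1* was higher, with 48.2 against 7.42 CPM, and *Bnip3l* stayed under 2-fold with 213 against 118 CPM. Of the 33 further genes, 10 were higher and 13 lower. *Hk3* (6.90), the hexokinase of white blood cells, and *Pygl* (5.05) had the largest ratios, and *Car12* (-6.69) and *Stc2* (-5.51) the smallest. At day 14, the 173 *Ptprc* positive cells also held the neutrophil genes (181237 CPM summed).

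**Figure D5:**
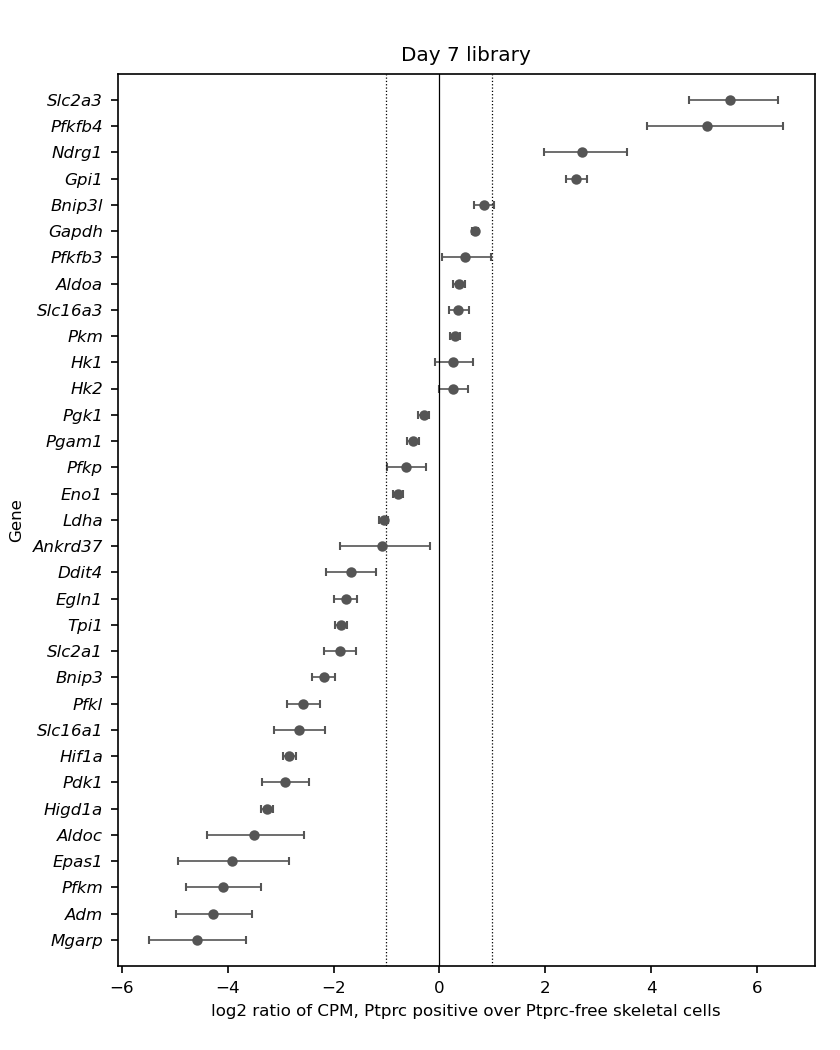
Log2 ratio of CPM for 33 genes in the 6570 *Ptprc* positive over the 99 *Ptprc*-free skeletal cells of the day 7 library, with exact 95% binomial intervals and dotted lines at 2-fold. *Slc2a3*, *Pfkfb4*, *Ndrg1*, and *Gpi1* lie to the right, and *Mgarp*, *Adm*, *Pfkm*, and *Epas1* farthest to the left.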

How the data were processed

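The data were 3 single-cell RNA libraries (10x Genomics 3′ chemistry, given as v2 in the labels and as v3.1 in the methods). The authors aligned the reads to mm10 and collapsed the UMIs with Cell Ranger, whose version is given as 3.0 in the submitters' processing notes and differently in the other sources. The deposited values are UMI counts, whole numbers that were not normalized. Limits on cells followed the study, with 500 to 5000 genes, at most 10% mitochondrial and at most 5% hemoglobin UMIs, which left 7017, 6593, and 9853 cells (day 7, day 10, day 14) with 55187609, 113618580, and 154573230 UMIs. No doublet caller was run.

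UMIs were summed over the cells of a class and divided by all their UMIs to give CPM, with exact Poisson intervals at 95%. Ratios had exact binomial (Clopper-Pearson) intervals, and a count of 0 was set to a floor of 3 counts. A gene was called different at 2-fold. Shares of cells were taken after thinning each cell to 2000 UMIs, leaving out shallower cells. UMIs amplified by PCR are counted once, and intervals cover counting error only. The ratios and their intervals were tested on simulated Poisson counts, the kind of counts that the intervals assume. The classes, the thinning, and the bins were not tested in this way. Python 3.11.15, numpy 2.4.6, scipy 1.17.1, pandas 2.3.3, and matplotlib 3.10.9 were used.

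The genes of the set and the further lists were chosen with earlier results of these data known. All genes of the set are named, and of 46 further pathway genes (33 passed the limit of 5 CPM) at most the 2 with the largest and the 2 with the smallest ratio in a comparison. Alternatives changed the limits of the classes, the treatment of cells high for several genes, the scaling, the weight of cells, the limit on low genes, and the fold. An alternative that also asked for an interval off 1, one without *Ptprc* positive cells that are high for a class gene, and the levels of cells high for 2 class genes were added after seeing the data.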

Additional observations from a re-analysis of the deposited data

Results flagged for a closer look

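*Epas1* was flagged because its day 14 over day 10 difference had opposite signs in 2 classes. The log2 ratio was 1.25 (interval 0.72 to 1.79) in *Cnmd*-high cells, from 50 to 81 UMIs, and -1.18 (-2.11 to -0.25) in *Ifitm5*-high cells, from 21 to 22 UMIs. The difference between the classes was not tested, since each day has 1 library. All 4 levels were below 9 CPM, against 104.1 and 105.3 CPM in *Col10a1*-high cells.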

How the results depend on the processing

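The counts of genes higher and lower in 13 comparisons were recomputed under the alternatives, 260 values in all, of which 214 stayed within 1.5 times. No paired analysis was possible because each day has 1 library, and for the same reason no library could be left out. Of 791 ratios of called genes, 788 kept their direction. The 3 that did not were in small counts, *Slc2a3* (-0.41, with the limits of the classes at 50% of their value) and *Mgarp* (-0.20, with each cell weighed the same) for day 14 over day 10 in *Ifitm5*-high cells, and *Ankrd37* (0.10, with each cell weighed the same) in *Ptprc* positive cells.

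Where cells high for several class genes were kept, each such cell was counted in every class it was high for. With cells high for several class genes kept, the count of lower genes in *Col10a1*-high over *Cnmd*-high cells was 1 at day 10 and 3 at day 14 (8 and 8 before), that in *Cnmd*-high over *Aspn*-high cells at day 10 was 1 (2), and for day 14 over day 10 it was 1 in *Cnmd*-high (2) and 3 in *Col10a1*-high cells (1). With the limits doubled, the lower counts were 4 for *Col10a1*-high over *Cnmd*-high cells at day 10 (8), and for day 14 over day 10 they were 1 in *Cnmd*-high (2) and 3 in *Col10a1*-high cells (1), and the higher count in *Aspn*-high cells was 1 (2). With the limits at 50%, *Ifitm5*-high over *Aspn*-high cells at day 10 had 5 higher (3), *Rgs5*-high over *Aspn*-high cells at day 14 had 3 lower (5), and for day 14 over day 10 there were 0 higher in *Aspn*-high (2), 2 lower in *Col10a1*-high (1), and 1 higher in *Ifitm5*-high cells (3). Without the upper limit of genes per cell, the counts were 5 lower for *Col10a1*-high over *Cnmd*-high at day 10 (8), 1 lower for *Cnmd*-high over *Aspn*-high on each day (2), 1 higher for *Ifitm5*-high over *Aspn*-high at day 14 (2), and for day 14 over day 10, 0 higher in *Aspn*-high (2) and 1 lower in *Cnmd*-high cells (2). With *Ptprc* positive cells allowed, *Cnmd*-high cells had 1 lower gene at day 14 (2). Relative to the median of all genes, *Cnmd*-high over *Aspn*-high cells had 15 higher (9) and 1 lower (2) at day 10 and 0 lower (2) at day 14, *Ifitm5*-high over *Aspn*-high cells had 6 higher (3) at day 10 and 3 lower (6) at day 14, and *Ptprc* positive cells had 9 higher (4). With each cell weighed the same, the counts were 1 lower for *Cnmd*-high over *Aspn*-high cells at day 14 (2) and 0 higher for *Aspn*-high cells at day 14 over day 10 (2). Without the limit on low genes, day 14 over day 10 had 1 higher in *Col10a1*-high (0) and 5 higher in *Ifitm5*-high cells (3). With an interval off 1 also asked for, *Ifitm5*-high cells had 0 higher (3).

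At a fold of 1.5, the counts were 15 lower (8) at day 10 and 5 higher (3) at day 14 for *Col10a1*-high over *Cnmd*-high, 18 and 17 higher (9 and 9) for *Cnmd*-high over *Aspn*-high, 6 higher (3) at day 10 and 13 lower (6) on each day for *Ifitm5*-high over *Aspn*-high, and 8 lower (4) at day 10 for *Rgs5*-high over *Aspn*-high cells. For day 14 over day 10 they were 2 lower in *Aspn*-high (0), 4 lower in *Cnmd*-high (2), 1 higher (0) and 3 lower (1) in *Col10a1*-high, and 5 higher (3) and 4 lower (2) in *Ifitm5*-high cells. The cause of these moves was not tested beyond what each setting does by construction. Shares of all genes were not recomputed under the alternatives, so the changed counts have no background beside them. For the bins of *Cnmd*-high cells only the scaling was varied, and relative to the median of all genes the counts were again 19 and 17 higher and 0 lower. Depth limits the genes of few UMIs, such as *Slc2a3*, *Aldoc*, *Mgarp*, and *Epas1* outside *Col10a1*-high and *Rgs5*-high cells, and every value of *Rgs5*-high cells at day 10.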
